A study of Mus musculus with 4 samples.

Results

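The genes described here are 10 transcription factors and cofactors that control entry into S phase and mitosis: E2f1, E2f2, E2f3, E2f4, E2f7, E2f8, the pocket protein genes Rb1, Rbl1 and Rbl2, and Mybl2. They were chosen by name, as genes with a probe set of that single symbol, and all 10 were found among the 19505 named genes of the arrays. Liver RNA of male C57BL6J mice was hybridised to 4 whole-transcript microarrays, 1 for each of 4 groups. All mice carried floxed Mcu alleles per the labels' treatment protocol, in which Mcu encodes the pore of the mitochondrial calcium uniporter. At 10 to 12 weeks of age they received an AAV8 virus through the tail vein, and 5 weeks later 70% of the liver was removed. In the control groups the virus was AAV8-TBG-Null, and in the knockdown groups AAV8-TBG-Cre, where the hepatocyte-directed TBG promoter drives Cre recombinase. WT_0h and KD_0h are the time 0 controls, and WT_30h and KD_30h are remnant liver 30 h after hepatectomy. Per the series text RNA of 4 animals was pooled, and each array was read as a single pooled sample. Whole liver was sampled, so other cell types of the organ contributed RNA besides the hepatocytes in which Cre was driven.

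The label fields disagree in places. The genotype field reads Wild type for the control arrays and does not name Mcu for the knockdown arrays, and the description field calls all samples ethanol-fed, a feeding absent from the other fields. For KD_30h that field says 1 h after the operation, whereas the title and time field say 30 h. Mcu itself read 4.77, 4.30, 2.83 and 2.63 on the log2 scale on WT_0h, WT_30h, KD_0h and KD_30h. It was lower on both arrays labelled as knockdown, in the direction of the titles. The 8 hepatocyte markers had median levels at or above percentile 99.7 of every array.

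E2F proteins bind promoters of genes needed for DNA synthesis, mostly as dimers with a DP partner. The pocket proteins pRB, p107 (from Rbl1) and p130 (from Rbl2) hold E2Fs in check until cyclin-dependent kinases phosphorylate them. In resting cells p130, E2F4 and the MuvB proteins form the repressive DREAM complex. In cycling cells MuvB instead joins B-Myb (from Mybl2) and later FoxM1 to switch on genes of mitosis. Most adult hepatocytes are quiescent, and removal of liver tissue brings them back into the cycle.

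In control liver, at 30 h E2f8, Rbl1, E2f1, E2f2 and Mybl2 exceeded their 0 h level by 2-fold or more, and none of the 10 genes was 2-fold lower. Over all named genes these shares were 4.19% and 2.22%. In knockdown liver none of the 10 was 2-fold higher at 30 h, against 2.72% of all genes, and Rbl2 was 2-fold lower, against 2.01%. At 30 h, 9 of the 10 genes had a lower level in the knockdown than in the control and E2f7 had a higher one. After quantile normalization E2f4 came to 0.02, which leaves 8 lower. Of all 19505 genes 9713 were lower in this comparison. Among bright genes, those whose mean over the arrays reached 3.83, 5973 of 9759 were lower (median -0.11). Of bright genes 5.98% were 2-fold higher at 30 h in control liver and 2.64% in knockdown liver. The later counts of lower genes at 30 h and of 2-fold responses are to be read beside these. Rbl1, E2f8 and E2f1 were at least 2-fold lower in the knockdown at 30 h, as were 1.86% of all genes. None of the 10 was 2-fold higher, against 2.07%. At 0 h none of the 10 differed 2-fold between genotypes, against 1.45% of all genes higher and 1.25% lower in the knockdown. With 1 array per group there was no replicate spread, so no value carries an error, no test was run, and no order of neighbouring levels can be set against replicate error. WT_30h serves in both the control response and the comparison at 30 h, and WT_0h in both the control response and the comparison at 0 h, so these are not independent of each other.

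**Figure D1:**
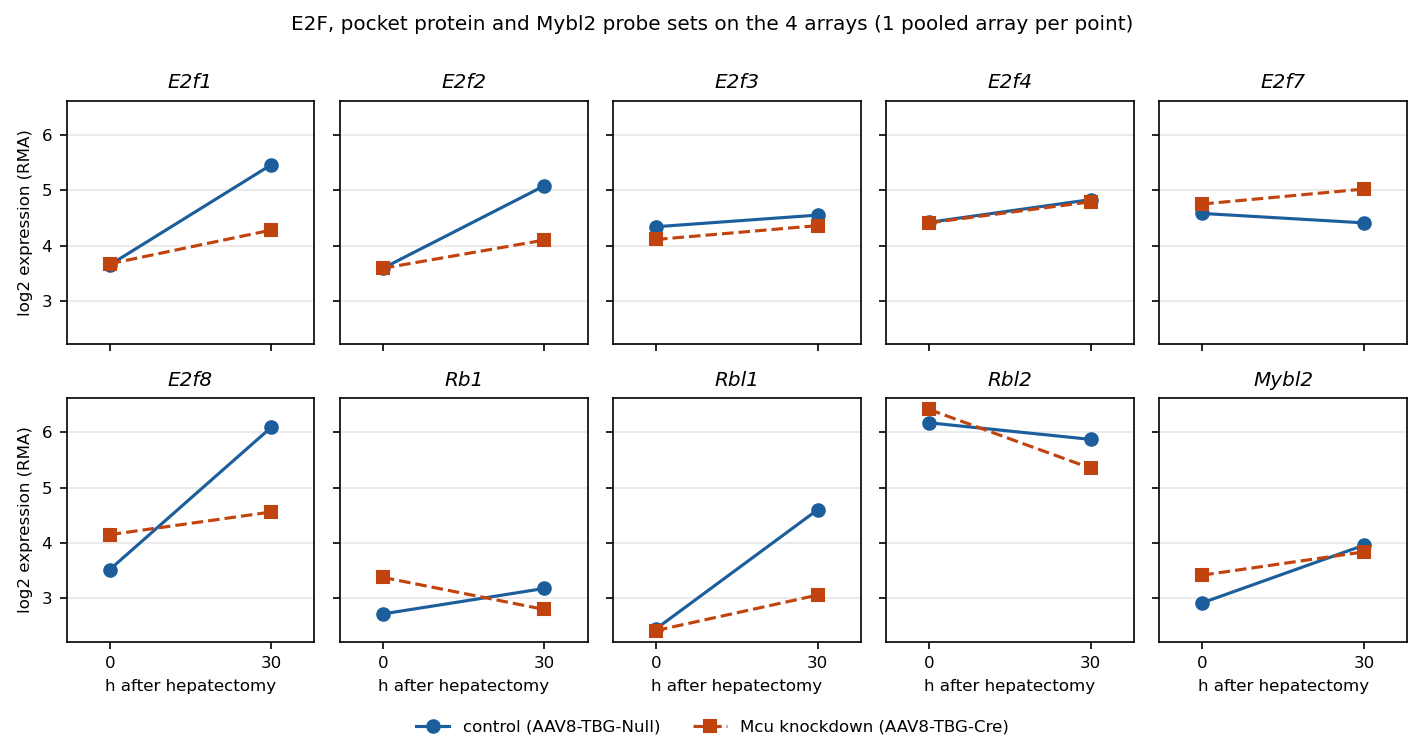
Log2 expression (vertical axis) of each of the 10 genes at 0 h and 30 h after hepatectomy (horizontal axis), 1 pooled array per point, joined by solid lines for control and dashed lines for Mcu knockdown. E2f1, E2f2, E2f8 and Rbl1 have 1 array, control at 30 h, standing above the other 3, while the lines of E2f4 lie almost on each other.

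Several E2F and pocket protein genes are themselves textbook E2F targets, so windows at their annotated starts are shown. RefSeq windows of assembly GRCm38.p6, running from 250 bases before to 50 after an annotated start, were at hand for 8 of the 10 genes; E2f4 and Rb1 had none. Windows were searched on both strands for the E2F site, any of TTTCCCGC, TTTCGCGC, TTTGCCGC and TTTGGCGC, and for the CHR element TTTGAA, to which MuvB binds. Only these exact spellings were searched, so letters left unmarked below can hold variant spellings of a site. No match overlapped another in the windows of these genes. An E2F site lay in the windows of 4 of the 8 genes (E2f2, E2f3, E2f7 and Rbl1), against 2.6% of 27025 genes with a window. A CHR element lay in those of 4 (E2f2, E2f3, E2f8 and Rbl2), against 20.2% of all genes. That of E2f2 was in the window of a second start farther downstream. The stretches from 60 bases before to 50 after the start are printed 5′ to 3′ on the gene's strand for the 5 genes that were 2-fold higher in control liver and for E2f3, which holds both motifs; capitals mark the matches.
Rbl1, chr2:157204485-157204594, minus strand: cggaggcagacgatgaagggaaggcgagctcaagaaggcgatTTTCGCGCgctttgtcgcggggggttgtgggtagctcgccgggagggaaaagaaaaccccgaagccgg
E2f8, chr7:48881547-48881656, minus strand: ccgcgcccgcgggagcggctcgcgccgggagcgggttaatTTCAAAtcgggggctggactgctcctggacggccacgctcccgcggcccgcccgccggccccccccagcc
E2f2, chr4:136172214-136172323, plus strand: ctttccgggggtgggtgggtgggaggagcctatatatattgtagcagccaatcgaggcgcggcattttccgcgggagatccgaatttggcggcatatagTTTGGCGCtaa
E2f1, chr2:154569377-154569486, minus strand: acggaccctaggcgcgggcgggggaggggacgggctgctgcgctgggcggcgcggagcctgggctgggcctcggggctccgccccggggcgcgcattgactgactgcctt
Mybl2, chr2:163054575-163054684, plus strand: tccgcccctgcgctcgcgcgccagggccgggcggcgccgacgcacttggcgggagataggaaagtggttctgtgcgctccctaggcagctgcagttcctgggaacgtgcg
E2f3, chr13:29986014-29986123, minus strand: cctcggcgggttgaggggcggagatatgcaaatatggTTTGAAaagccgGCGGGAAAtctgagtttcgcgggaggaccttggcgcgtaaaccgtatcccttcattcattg

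The E2F site of Rbl1 ran from base -18 to -11 relative to the start, and that of E2f3 from -11 to -4 with the CHR element at -23 to -18 beside it. E2f8 had its CHR element at -20 to -15, on the opposite strand. In E2f2 the E2F site lay after the start, at 40 to 47. Its CHR element, at -31 to -26, belonged to a second annotated start. The window of that start (chr4:136180532-136180831) lies downstream of the first (chr4:136172024-136172323) and may lie inside the gene. E2f7 and Rbl2 had their matches farther away, an E2F site at -198 to -191 and a CHR element at -201 to -196. E2f1 and Mybl2 held neither spelling in these windows, nor did the second window of E2f3. Whether an annotated start is the one used in liver was not checked, and the window of E2f1 may lie inside the gene. Sequence beyond the windows was not searched, so a window without a match does not show a promoter without sites. Of the 5 genes that were 2-fold higher in control liver, Rbl1 and E2f2 held an E2F site, and of the others with a window, E2f3 and E2f7 did. A match is a description of the letters, not evidence of binding.

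**Figure D2:**
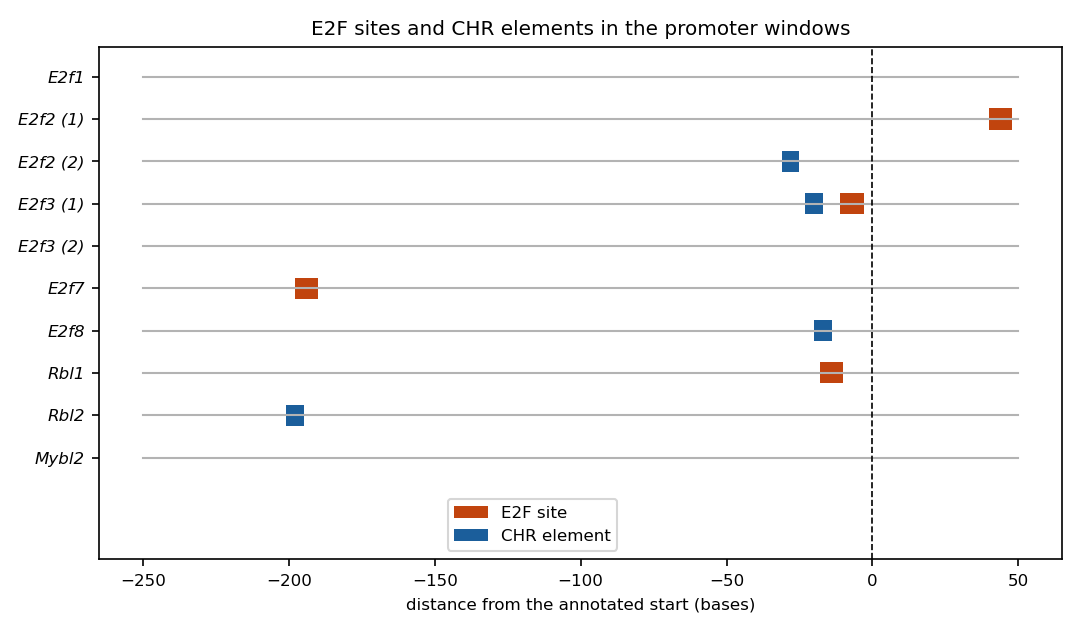
E2F sites (orange) and CHR elements (blue) along the 10 promoter windows of 8 genes, by distance in bases from the annotated start (dashed line). E2f2 and E2f3 have a window for each of 2 starts. Matches of Rbl1, E2f8 and E2f3 cluster just before the start, while those of E2f7 and Rbl2 lie near the far end.

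E2f1, E2f2 and E2f3 are the activating E2Fs. E2f1 (Entrez gene 13555), which drives S phase genes and at high activity also apoptosis genes, read 3.65 on WT_0h, 5.46 on WT_30h, 3.67 on KD_0h and 4.28 on KD_30h. The control array at 30 h stood above the other 3, and the knockdown array at 30 h lay between it and the 0 h arrays. E2f1 was 3.51-fold higher at 30 h in control liver (log2 difference 1.81, the 147th highest of all genes) and 1.53-fold higher in knockdown liver (0.61). Knockdown was 2.27-fold lower than control at 30 h (-1.18), and the genotypes differed by 0.02 at 0 h.

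E2f2 (Entrez gene 242705), a close relative of E2f1, read 3.59 on WT_0h, 5.08 on WT_30h, 3.59 on KD_0h and 4.10 on KD_30h. Its order over the arrays was that of E2f1, with the genotypes level at 0 h. The control response was 2.81-fold (1.49) and the knockdown response 1.42-fold (0.51). At 30 h the knockdown was 1.97-fold lower (-0.98), just inside the 2-fold line, and it passed the line after median centring of the arrays (-1.07) and cyclic loess (-1.001).

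E2f3 (Entrez gene 13557), which yields long and short proteins from separate starts, was covered by 2 probe sets annotated to different RefSeq transcripts. The brighter, whose identifier labels it as unmapped, stands for E2f3 in the main counts and the figures. It read 4.34 on WT_0h, 4.55 on WT_30h, 4.11 on KD_0h and 4.36 on KD_30h. Its highest and lowest arrays differed by 0.44, and its responses of 0.21 in control and 0.25 in knockdown liver were alike in size. The dimmer probe set read 3.39, 3.92, 2.63 and 3.11 in the same order. There the knockdown was lower by 0.76 at 0 h and by 0.81 at 30 h (log2 differences -0.76 and -0.81), against -0.23 and -0.19 on the brighter one. The probe sets thus had the same sign but a different size of the genotype difference, and their responses to hepatectomy were 0.53 and 0.48 on the dimmer one.

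E2f4, E2f7 and E2f8 encode repressing E2Fs. E2f4 (Entrez gene 104394), the main E2F of quiescent cells and a DREAM subunit, read 4.42 on WT_0h, 4.83 on WT_30h, 4.41 on KD_0h and 4.79 on KD_30h. It was 1.33-fold higher at 30 h in control liver and 1.30-fold in knockdown liver. The genotypes differed by -0.01 at 0 h and -0.04 at 30 h. Unlike E2f1 and E2f2, its 30 h arrays lay side by side.

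E2f7 and E2f8 are the atypical E2Fs, which bind DNA without a DP partner, repress E2F targets late in S phase and drive polyploidy of hepatocytes. E2f8 (Entrez gene 108961) read 3.52 on WT_0h, 6.09 on WT_30h, 4.15 on KD_0h and 4.56 on KD_30h. Its range of 2.57 was the widest of the 10 genes. E2f8 was 5.94-fold higher at 30 h in control liver (2.57, the 56th highest of all genes) and 1.33-fold higher in knockdown liver (0.41). The knockdown was 1.55-fold higher than control at 0 h (0.63) and 2.89-fold lower at 30 h (-1.53, the 47th lowest).

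E2f7 (Entrez gene 52679) read 4.58 on WT_0h, 4.41 on WT_30h, 4.75 on KD_0h and 5.02 on KD_30h. Here the knockdown array at 30 h was the highest and the control array at 30 h the lowest. The response was -0.17 in control and 0.27 in knockdown liver, and knockdown was 1.53-fold higher at 30 h (0.61), at percentile 90.5 of all genes. E2f7 was the single gene of the 10 that was higher in the knockdown at 30 h, while its closest relative E2f8 was among the lowest.

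The pocket protein genes each had another profile. Rbl1 (Entrez gene 19650), whose product p107 appears mainly in cycling cells and is an E2F target, read 2.45 on WT_0h, 4.60 on WT_30h, 2.42 on KD_0h and 3.06 on KD_30h. The 0 h arrays were level at the dim end, at percentiles 19.3 and 19.4, where folds are understated. Rbl1 was 4.44-fold higher at 30 h in control liver (2.15, the 98th highest) and 1.56-fold in knockdown liver (0.64). At 30 h it was 2.91-fold lower in the knockdown (-1.54, the 45th lowest of all genes).

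Rbl2 (Entrez gene 19651), whose product p130 is the pocket protein of quiescent cells, read 6.17 on WT_0h, 5.87 on WT_30h, 6.41 on KD_0h and 5.35 on KD_30h. Both 30 h arrays lay below both 0 h arrays. It was 1.23-fold lower at 30 h in control liver (-0.30) and 2.08-fold lower in knockdown liver (-1.06), and after cyclic loess the latter came to -0.998, just inside the 2-fold line. Between genotypes it differed by 0.24 at 0 h and -0.52 at 30 h. Rb1 (Entrez gene 19645), which encodes pRB, read 2.72 on WT_0h, 3.18 on WT_30h, 3.38 on KD_0h and 2.80 on KD_30h. All 4 values lay in the dimmer part of their arrays, between percentiles 26.1 and 41.1, and the response was 0.46 in control and -0.58 in knockdown liver. The control array was higher at 30 h and the knockdown array higher at 0 h, with no difference of 2-fold between any of them.

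Mybl2 (Entrez gene 17865), the Myb factor of cycling cells and an E2F target, read 2.92 on WT_0h, 3.96 on WT_30h, 3.42 on KD_0h and 3.84 on KD_30h. Both 30 h arrays were above both 0 h arrays. The control response was 2.06-fold (1.04) and the knockdown response 1.34-fold (0.42). The 0 h values were dim, at percentile 30.7 on WT_0h and 42.1 on KD_0h. At 30 h the genotypes differed by -0.12, and by -0.25 after cyclic loess. The smaller knockdown response thus came with a 0 h level that was higher by 0.50. In this Mybl2 differed from Rbl1, E2f1 and E2f2, whose genotype difference lay at 30 h.

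**Figure D3:**
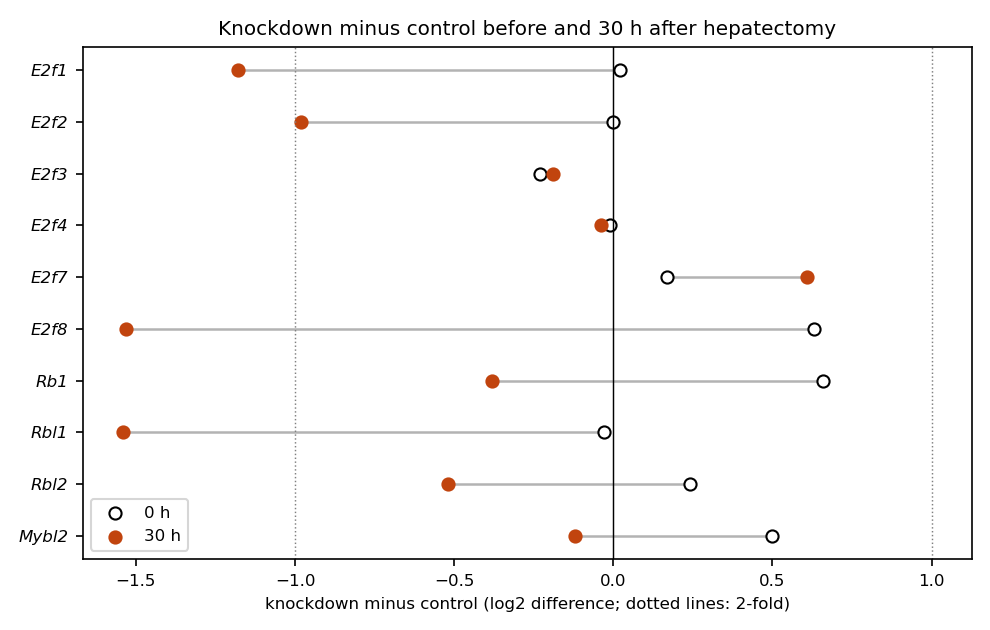
Knockdown minus control log2 difference (horizontal axis) for each gene at 0 h (open circles) and 30 h (filled circles), joined by a line, with dotted lines at 2-fold. At 30 h Rbl1, E2f8 and E2f1 lie past the lower line, while at 0 h all 10 genes lie between the lines.

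The knockdown response minus the control response was -2.16 for E2f8 (the 28th lowest of all genes), -1.51 for Rbl1, -1.20 for E2f1, -1.04 for Rb1 and -0.98 for E2f2. It was smaller for Rbl2 (-0.76) and Mybl2 (-0.62) and positive for E2f7 (0.44). E2f3 (0.04) and E2f4 (-0.03) had nearly equal responses, with a sign that turned under other scalings, to -0.03 for E2f3 after median centring and to 0.05 for E2f4 after quantile normalization. This quantity adds the noise of 4 arrays. Responses differed by at least 2-fold towards the knockdown being lower in 4 of the 10 genes and in 5.82% of all genes. In the other direction they did so in none of the 10 and in 6% of all genes. Of the 10 genes 7 were bright, and bright genes were less even. Among 9759 bright genes 725 were 2-fold lower and 316 were 2-fold higher (median -0.18). The median over the 10 genes was 0.75 for the control response, 0.40 for the knockdown response, 0.10 for knockdown minus control at 0 h and -0.45 at 30 h. The same medians over all named genes were -0.01, 0.01, 0.01 and 0.

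**Figure D4:**
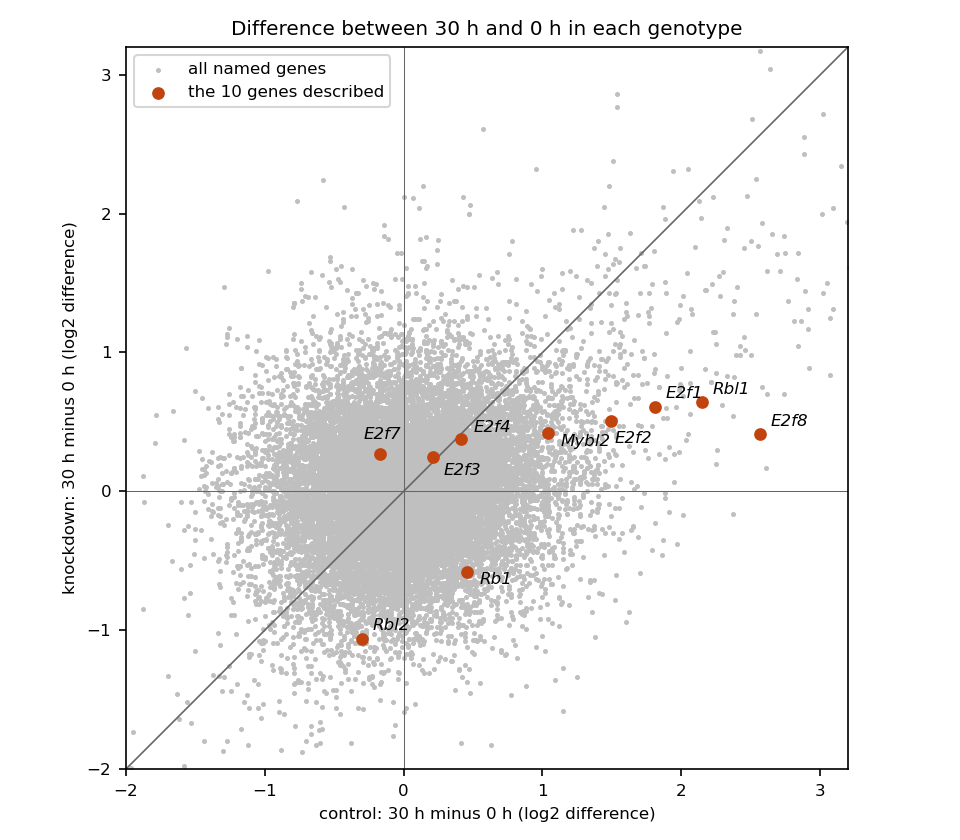
Log2 difference between 30 h and 0 h in control liver (horizontal axis) against that in knockdown liver (vertical axis), with all named genes in grey, the 10 genes in orange and the line of equal responses. Genes with the largest responses lie outside the axes. E2f8, Rbl1, E2f1 and E2f2 lie far to the right at knockdown responses of 0.41 to 0.64, while E2f3 and E2f4 lie on the line.

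Other genes of the pathway were grouped into 8 lists, with 96 of 105 genes measured. The other 9, among them Foxm1 and Ccnd1, had no probe set of that single symbol and were not analysed here. The DP genes, which encode the dimer partners of E2Fs, were Tfdp1 with a control response of 1.13 and a difference of -1.02 between genotypes at 30 h, and Tfdp2 with 1.00 and -0.69. E2f5 (0.09 and -0.14), an E2F that works with p130, and E2f6 (0.46 and -0.23), a repressor that binds no pocket protein, differed less. E2f5 was not bright. In this list 2 of 4 genes passed 2-fold in the control response and none in the knockdown response.

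Of 7 measured MuvB and Myb genes, 3 had a control response of 2-fold or more, against 1 in knockdown liver. Mybl1, the A-Myb gene, read 2.61 on WT_0h, 6.26 on WT_30h, 2.21 on KD_0h and 4.62 on KD_30h. Its control response of 3.65 exceeded that of Mybl2, and at 30 h it was lower in the knockdown by 1.64 (log2 difference -1.64). The MuvB subunits Lin54 and Lin9 had control responses of 1.91 and 1.27 and knockdown responses of -0.15 and -0.16. Both were higher in the knockdown at 0 h (1.15 and 0.94) and lower at 30 h (-0.91 and -0.49). These signs were also those of E2f8, whose knockdown response was positive (0.41). Lin52 differed by -0.07 at 30 h, Lin37 by 0.17 and Rbbp4, a histone-binding subunit, by -0.57. Myb, the c-Myb gene of blood progenitors, differed by 0.42 and was dim.

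Of 10 measured cyclins and kinases that act on pocket proteins, 9 were lower in the knockdown at 30 h. The G1 to S cyclin genes Ccne2 (4.50) and Ccne1 (2.55) and their kinase Cdk2 (2.37) had the largest control responses of the list. At 30 h Ccne2 (-1.57), Cdk2 (-1.34) and the cyclin A gene Ccna2 (-0.68) were the lowest in the knockdown. The G1 genes Ccnd3 (0.17), Cdk4 (-0.14) and Ccnd2 (-0.16) were the highest, and Ccne1 differed by -0.33. In all, 4 of 10 passed 2-fold in the control response and 3 of 10 in the knockdown response.

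CDK inhibitors keep pocket proteins active. Cdkn1a, which encodes p21, read 4.05 on WT_0h, 6.67 on WT_30h, 5.89 on KD_0h and 6.59 on KD_30h, so it was 1.84 higher in the knockdown at 0 h and differed by -0.08 at 30 h. Cdkn2c, which encodes the CDK4 and CDK6 inhibitor p18, had 0.67 at 0 h and -0.57 at 30 h. The differences at 30 h were -0.32 for Cdkn1b, 0.54 for Cdkn1c, -0.25 for Cdkn2a, 0.70 for Cdkn2b and -0.33 for Cdkn2d. None of the 7 was 2-fold apart at 30 h, and Cdkn2a and Cdkn2b were not bright.

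Of 9 measured corepressors that act with pocket proteins, none was 2-fold apart between genotypes at 30 h or between times in either genotype. The responses of the genotypes differed by more than 2-fold for Kdm5a (-1.37, with a knockdown response of -0.98) and Arid4b (1.02), both dim. The histone deacetylase genes Hdac3 (0.72) and Hdac2 (0.49) and the DNA methyltransferase gene Dnmt1 (0.77) had the largest control responses. At 30 h the histone demethylase gene Kdm5a (-0.85), Hdac2 (-0.56) and Dnmt1 (-0.34) were lowest in the knockdown, and Arid4b (0.46), Sin3a (-0.10) and Hdac1 (-0.24) highest.

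Genes that act in turnover of these proteins were higher in control liver at 30 h, 5 of 6 by at least 2-fold. None was 2-fold higher in knockdown liver. The shares of bright genes were 5.98% in control and 2.64% in knockdown liver. The responses in control liver were 1.51 for Cdc20, 1.40 for Psmd10, 1.39 for Cul1, 1.39 for Skp2, 1.24 for Mdm2 and 0.08 for Fzr1. Skp2 encodes the ubiquitin ligase receptor for p27 and Psmd10 encodes gankyrin, which binds pRB. At 30 h the knockdown differed by -1.35 for Cdc20, -0.76 for Cul1, -0.74 for Psmd10, -0.26 for Mdm2, -0.02 for Skp2 and 0.03 for Fzr1. Cdc20 was not bright.

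Textbook E2F targets of G1 to S were mostly higher at 30 h in both genotypes, 29 of 30 measured in control and 26 of 30 in knockdown liver. Of these 30, 25 had a control response of 2-fold or more (median 1.97) and 16 such a knockdown response (median 1.17). The helicase subunits Mcm6 (4.93) and Mcm4 (4.34) and the licensing factor Cdt1 (3.79) led in control. At 0 h 18 were higher in the knockdown and 12 lower (median 0.08). There 2 were 2-fold higher, Cdt1 (2.06) and Mcm6 (1.21), and 1 was 2-fold lower. For Cdt1 the genotypes differed by -0.54 at 30 h. At 30 h all 30 were lower in the knockdown, 12 by at least 2-fold (median -0.82). The GINS subunit Gins1 (-1.79), Mcm4 (-1.60) and the ribonucleotide reductase subunit Rrm2 (-1.59) were the lowest. Of the 30 genes 21 were bright, and Gins1 was not. Uhrf1 (-0.02), Mcm10 (-0.13) and the Polycomb methyltransferase Ezh2 (-0.19) were nearest to 0. In the promoter windows 13 of 28 of these genes held an E2F site, 46.4% against 2.6% of all genes with a window. A list of textbook targets may be rich in such sites by its making, so this share is a description and no test.

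Textbook targets of B-Myb, FoxM1 and MuvB in G2 and mitosis were 2-fold higher in 14 of 23 genes in control liver (median 1.38) and in 6 in knockdown liver (median 0.37). Cdk1 (2.74), the ubiquitin-conjugating enzyme Ube2c (2.58) and the centrosomal kinase Nek2 (2.31) had the largest control responses. At 0 h 10 of the 23 were higher in the knockdown and 13 lower (median -0.14). At 30 h 22 of 23 were lower in the knockdown, 11 by at least 2-fold (median -0.98), with Bub1 (-1.82), Cdk1 (-1.71) and Mki67 (-1.43) the lowest. Cenpf (0.21), Top2a (-0.15) and Birc5 (-0.19) were highest. In the same comparison Mybl2 itself differed by -0.12. Of the 23 genes 11 were bright, and Bub1, Cdk1, Nek2 and Cenpf were not. A CHR element lay in the windows of 14 of 20 of these genes (70%), against 20.2% of all genes. For the same reason as with the E2F targets, this share is a description and no test.

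**Figure D5:**
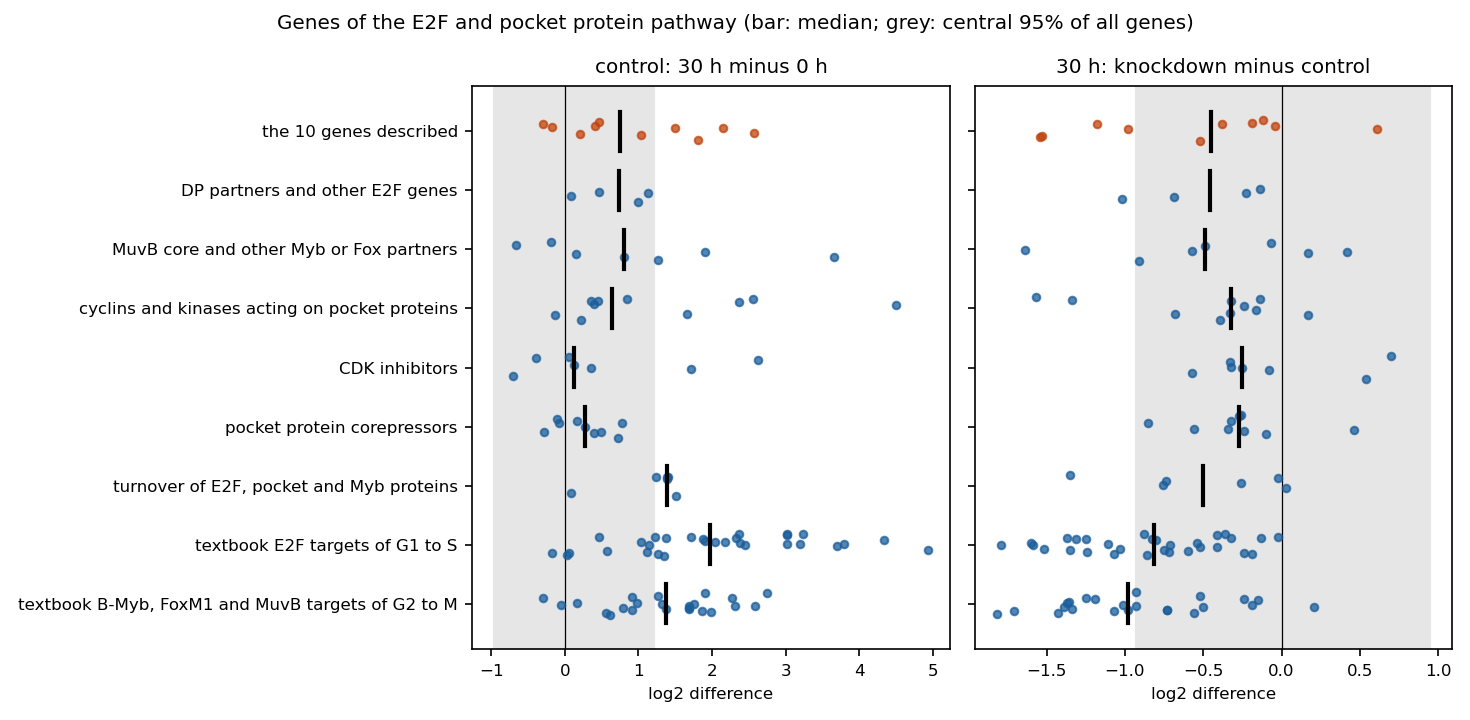
Log2 difference of each gene (points) in the 10 genes described (orange) and 8 pathway lists (blue), for the control response (left) and for knockdown minus control at 30 h (right), with black bars for medians and grey for the central 95% of all named genes. The median farthest from 0 is that of the E2F targets in the left panel (1.97) and that of the mitotic targets in the right panel (-0.98).

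The genes with the profile most like each member over the 4 arrays were found by the Euclidean distance between profiles centred on their means, among bright genes, those whose mean over the arrays reached 3.83, the median of such means. Of the 10 members Rb1, Rbl1 and Mybl2 were not bright. For E2f8 the nearest was Cdk2 (distance 0.17), followed by Tuba1a (0.36) and Cdca3 (0.38). E2f1 had Tceal9 (0.10), Haus6 (0.13) and Ddias (0.19) nearest, and E2f2 had Myo1c (0.14), Tipin (0.14) and B4galt5 (0.15). The nearest to Rbl1 were Ccdc34 (0.17), Cers6 (0.34) and Gemin6 (0.34). For Rbl2 they were Hspb6 (0.05), Hykk (0.06) and Lypd2 (0.07), and for Mybl2 they were Nkx2-5 (0.02), Eef1e1 (0.05) and Wfdc17 (0.06). A distance over 4 arrays describes these arrays and no more.

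Markers of other cell types were read beside these results. Of 6 Kupffer cell markers 5 were higher at 30 h in control liver and C1qa was level, and all 6 were lower in the knockdown at 30 h (median -0.45). Their summed level on the log2 scale was 7.88 on WT_0h, 8.85 on WT_30h, 8.35 on KD_0h and 8.52 on KD_30h. At 0 h all 6 were higher in the knockdown. Of 5 sinusoidal endothelial markers 3 were lower in the knockdown at 30 h, with summed levels from 7.32 to 8.02 over the arrays. Stellate markers had 3 of 5 lower (9.65 to 9.78), cholangiocyte markers 2 of 4 (5.74 to 6.04), neutrophil markers 3 of 4 (4.74 to 5.15) and lymphocyte markers 1 of 4 (4.75 to 5.13). Neutrophil and lymphocyte markers were dim, with medians between percentiles 24.3 and 33.8 of the arrays. Hepatocyte markers had summed levels of 14.72 to 14.83 on the 4 arrays. The part of these cells in the results was not tested, and in whole liver fewer cells of a type and less RNA per cell cannot be told apart.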

How the data were processed

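The authors deposited 1 log2 value for each probe set and array, computed by RMA in Affymetrix Expression Console according to the submitters' processing notes; its version is not given in the sources used here. Because RMA equalises the arrays, a shift common to every gene is hidden. No detection call was used, dim values understate folds, and precision is limited by the number of arrays. Of 22206 probe sets, 19572 carried 1 gene symbol. The other 2634, without a single symbol, were left out, and 19505 genes resulted. A gene took its brightest probe set by the mean of the 4 arrays.

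Differences between arrays were computed with Python 3.11.15 and pandas 2.3.3 in 5 comparisons, with no filter on dim genes, and counted at 2-fold. Alternatives were the mean of probe sets, median centring, quantile normalization and cyclic loess (limma 3.58.1), bright genes only, and thresholds of 1.5-fold and 3-fold. The procedure was tested on simulated data. The 10 genes, the pathway lists and the motifs were chosen with earlier results of these data known. Named pathway genes were, by rule, all genes of lists of up to 7 and the 3 with the largest difference in each direction at 30 h and the 3 with the largest control response of longer lists; in the text Lin9, Ccne1 and other genes come from either part. For members with a range of at least 1, the 3 most similar bright genes were named. Promoter sequences are RefSeq's, assembly GRCm38.p6; no build is given for the arrays. No protein sequence was used here, so the planned comparison of proteins was not run. One label item is not reported here.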

Additional observations from a re-analysis of the deposited data

Results flagged for a closer look

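With 1 array per group, a member was picked out where the same contrast had opposite signs in the other genotype or at the other time; these differences were not tested. Such opposite signs were common over all 19505 genes: 44.6% for the 30 h minus 0 h contrast in the 2 genotypes and 50.8% for the genotype contrast at the 2 times. Among the 10 genes they were 2 and 5. The sign alone therefore sets none of these genes apart, and the size is given beside it.

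Between genotypes, E2f8 was 0.63 at 0 h and -1.53 at 30 h, so the later difference minus the earlier was -2.16. E2f1 was 0.02 and -1.18 (-1.20), with a 0 h value so near 0 that its sign turned under cyclic loess. Rb1 was 0.66 and -0.38 (-1.04), on dim values. Rbl2 was 0.24 and -0.52 (-0.76), and Mybl2 was 0.50 and -0.12 (-0.62). Between times, E2f7 was -0.17 in control and 0.27 in knockdown liver, a difference of 0.44, and Rb1 was 0.46 and -0.58, a difference of -1.04.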

How the results depend on the processing

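Of 200 values of single genes recomputed under 4 alternatives, 178 stayed within 0.1 and the largest move was 0.31. No difference of 2-fold changed sign. A sign change occurred in 7 values, whose size before recomputing was at most 0.04. The count of genes at least 2-fold higher in control liver was 5, and 3 among bright genes only or at 3-fold; its median moved from 0.75 to 0.85 with cyclic loess and 0.41 among bright genes. No gene was 2-fold higher in knockdown liver, and 2 were at 1.5-fold. At 30 h the 3 genes 2-fold lower became 4 after median centring, after cyclic loess and at 1.5-fold. They became 2 among bright genes and 0 at 3-fold. Over all genes the share lower at 30 h was 2.79% after median centring and 2.04% after cyclic loess. It was 9.19% at 1.5-fold and 0.205% at 3-fold, and 2.16% of bright genes were 2-fold lower. The 4 genes with a 2-fold lower knockdown response became 5 after median centring and 7 at 1.5-fold. They became 2 among bright genes and 1 at 3-fold, and the median of -0.87 became -0.76 among bright genes. For this response difference the shares of all genes were 6.97% after median centring, 17% at 1.5-fold and 0.923% at 3-fold. Of bright genes 7.43% were 2-fold lower. The fewer bright genes follow from leaving out Rb1, Rbl1 and Mybl2, and the brightness limit itself uses the arrays compared, so these counts support nothing. No paired analysis was possible because each group has 1 array, and no array could be left out for the same reason.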
